A study of Mus musculus with 4 samples.

Results

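Pbx3 and Cdkn2c, a pair of genes tied to the histone methyltransferase MLL1, were each lower in regulatory T cells (Tregs) labelled as lacking MLL1. They were chosen by gene name from the deposited table, as 2 of its 282 genes. The submitters had sequenced RNA from Tregs, a class of CD4+ T cells that holds immune responses in check. Male mice aged 6 to 8 weeks carried Foxp3RFP-Cre, which ties a red fluorescent protein and Cre to the Treg gene Foxp3, a RosaYFP reporter and Mll1fl/fl, the floxed gene for MLL1. RFP+YFP+ Tregs bore the genotype label MLL1KO and RFP+YFP- Tregs the label WT, with 2 libraries each under the same mouse numbers, 1 and 2. The labels do not state whether each number means 1 animal or a pool. Errors and p-values are therefore not known to measure the spread between animals, and SDs measure the spread between the 2 libraries of a group. Both populations came from mice with the floxed alleles and Foxp3RFP-Cre, so the WT-labelled cells are YFP-negative Tregs of those mice and not of a separate strain.

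MLL1, whose mouse gene symbol is Kmt2a, adds methyl groups to H3K4 at promoters and is known for sustaining HOX gene expression in blood stem cells. PBX3 is a homeodomain protein of the TALE class that binds DNA together with HOX and MEIS proteins, and MLL fusion leukaemias are known for high levels of these partners. CDKN2C is an INK4 protein that binds CDK4 and CDK6, keeps them from D-type cyclins and so restrains entry into the cell cycle, and MLL1 with its partner menin is known to bind its gene in endocrine cells.

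Pbx3 (ENSMUSG00000038718, mm10 chromosome 2, 34171457 to 34373142, minus strand) spans 201686 bases and has 10 transcripts in GENCODE M21, of which 5 are protein-coding. Cdkn2c (ENSMUSG00000028551, chromosome 4, 109660876 to 109667189, minus strand) spans 6314 bases and has 2 transcripts, both protein-coding. The exon lengths in the table, 6109 and 2686 bases, equalled those of all GENCODE exons of each gene combined, so the values count the whole gene and do not separate transcripts. No exon base of either gene was shared with another gene. Against the transcripts of all other mouse genes, matches of at least 100 bases at 95% identity covered 0 bases of the longest transcript of either gene.

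The RefSeq promoter table (GRCm38.p6) held Cdkn2c, 1 of the 2 genes. It gave 2 windows of 300 bases for Cdkn2c, each reaching from 250 bases before a transcript start to 50 bases from it onwards. They are described because MLL1 has a CXXC domain, which binds unmethylated CG dinucleotides. CG reads the same on both strands and cannot overlap itself. The window at the outer start (chr4:109666707-109667006) held 33 CG, a number reached by 8.56% of the 32851 promoter windows in the table. The window at the inner start (chr4:109665323-109665622) held 8 CG, reached by 48.65% of windows, where the median window held 7. The outer window lies inside the first exon of the longer GENCODE transcript and is not printed. The stretch before the inner start that is not exonic (chr4:109665373-109665609, minus strand, 237 bases) is shown with its 6 CG in capitals, so that their positions can be seen.
Cdkn2c inner start: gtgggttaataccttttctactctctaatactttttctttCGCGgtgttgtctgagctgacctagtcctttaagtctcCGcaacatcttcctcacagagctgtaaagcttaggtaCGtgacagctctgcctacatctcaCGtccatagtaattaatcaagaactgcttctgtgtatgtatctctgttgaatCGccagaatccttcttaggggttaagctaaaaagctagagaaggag
The RNA values do not tell which start was used, and CG content was not compared with the fold changes.

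All values that follow are normalized counts, the authors' read counts divided by a size factor per library, unless another scale is named. The read numbers behind them were inferred from the steps of the values. The listed genes together held between 196337 and 329350 inferred reads per library, which is not the library's depth. The table listed only genes that the authors had selected on these same libraries, by an adjusted p below 0.05 together with a log2 fold change beyond 1 in either direction, so a test on a listed gene is not independent evidence. Foxp3, which defines Tregs, and the deleted gene Kmt2a have no value among the genes used here, and so neither the Treg label nor the deletion was checked.

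Pbx3, the HOX partner, was low in both YFP-positive libraries. Its normalized count was 11.4 in YFP-positive mouse 1, 17.0 in YFP-positive mouse 2, 101 in YFP-negative mouse 1 and 99.0 in YFP-negative mouse 2. Both YFP-positive libraries lay far below both YFP-negative libraries, which were nearly equal, and the groups did not overlap. The group means were 14.2 ± 3.91 and 99.98 ± 1.41 (SD, n = 2 each), so YFP-positive Tregs had 14.2% of the YFP-negative level. By limma on log2(value + 1), Pbx3 fell by 2.76 ± 0.58 (SE) with a 95% interval of -3.91 to -1.60 and adjusted p = 4.66e-05 over the 282 genes. The scale understates falls of low genes, and the authors' deposited table gave a log2 fold change of -2.82 with adjusted p = 0.00113. Limma's SEs, intervals and p-values borrow variance from all 282 listed genes, so they do not measure the spread of these libraries alone.

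The precision of Pbx3 was set by its YFP-positive libraries, with 11 and 16 inferred reads against 103 and 110 in the YFP-negative libraries. The exact 95% Poisson intervals of those reads, on the scale of normalized counts, were 5.71 to 20.5 in YFP-positive mouse 1 and 9.70 to 27.6 in YFP-positive mouse 2. They overlap, and the difference between the YFP-positive libraries was not tested. In the YFP-negative libraries the intervals were 82.4 to 122 and 81.3 to 119, above both YFP-positive intervals. These intervals cover counting error only.

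Cdkn2c, the cell cycle inhibitor gene, was also low in both YFP-positive libraries and was counted at higher levels than Pbx3 throughout. Its normalized count was 63.4 in YFP-positive mouse 1, 99.7 in YFP-positive mouse 2, 385 in YFP-negative mouse 1 and 439 in YFP-negative mouse 2. The groups did not overlap, and within each group the mouse 2 library was the higher. The means were 81.6 ± 25.6 and 412 ± 38.1 (SD, n = 2 each), so 19.8% of the YFP-negative level was counted in YFP-positive Tregs. By limma, Cdkn2c fell by 2.36 ± 0.40 (SE) on the log2 scale, with a 95% interval of -3.16 to -1.55 and adjusted p = 2.38e-06 over the same genes. The authors' deposited table gave -2.34 and adjusted p = 2.64e-06. The inferred reads were 61 and 94 in the YFP-positive and 393 and 488 in the YFP-negative libraries. As normalized counts, the exact 95% Poisson intervals of the YFP-positive libraries were 48.5 to 81.5 and 80.5 to 122. They overlap narrowly, and the difference between these libraries was not tested.

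In bulk samples, fewer cells that express a gene and less RNA per cell cannot be told apart. By the same limma fit, 69.5% of the 282 genes were called lower in YFP-positive Tregs, 30.5% were called higher and 100% were called in either direction. The groups did not overlap in 100% of the genes, with YFP-positive below YFP-negative in 69.5%. The 2 of 2 members that fell are to be read against that share. The ratio of p to adjusted p in the authors' deposited table implied an adjustment over 14239 genes, of which the 282 are 1.98%. That number was inferred, and it matched the ratio in 98.0% of the 50 genes used. When limma's p was adjusted over that number, Pbx3 had adjusted p = 0.00236 and Cdkn2c had adjusted p = 0.000120.

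**Figure D1:**
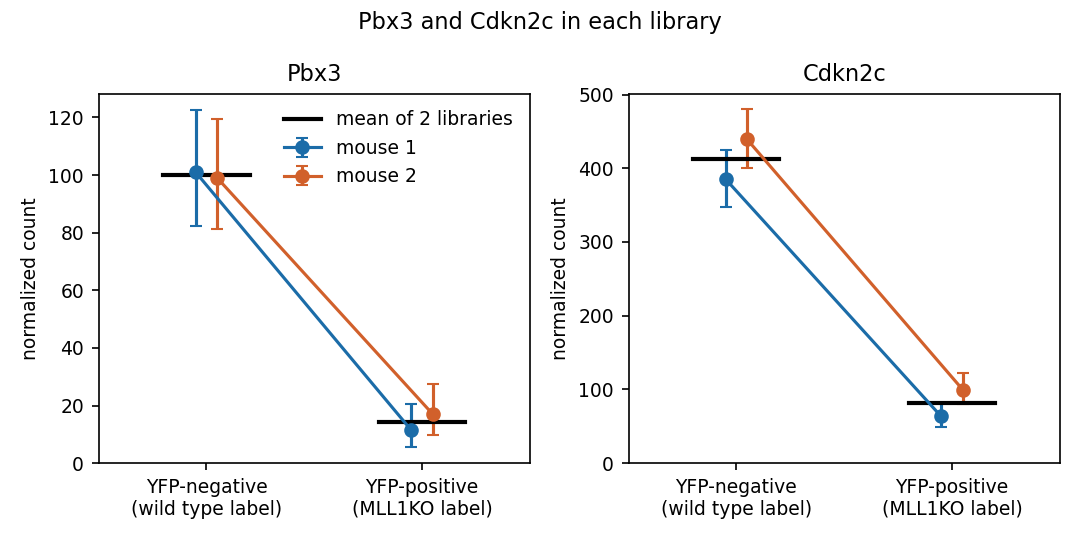
Normalized counts of Pbx3 (left) and Cdkn2c (right) by population, with 1 point per library, a line joining the libraries of each mouse number, exact 95% Poisson intervals of the inferred reads as bars and the group means as black lines. Both axes start at 0, and each gene's YFP-positive points lie below its YFP-negative points, at 11.4 and 17.0 against 101 and 99.0 for Pbx3.

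Because both populations carried the same mouse numbers, the fall could be measured under each number. Pbx3 was 8.83-fold higher in the YFP-negative library of mouse 1 (exact 95% interval from the read counts 4.73 to 18.2) and 5.83-fold higher in that of mouse 2 (3.44 to 10.6). Cdkn2c was 6.07-fold higher in the YFP-negative library of mouse 1 (4.63 to 8.09) and 4.41-fold higher in that of mouse 2 (3.53 to 5.55). Every one of these 4 intervals lay above 3-fold. For each gene the intervals of the mice overlap, but overlap is not a test, and the difference between mice was not tested. A larger fall in mouse 1 was common in the table, where 161 of the 196 lower genes (82.1%) fell more in mouse 1. Likewise, 153 of the 196 (78.1%) had the higher YFP-positive value in mouse 2, as Pbx3 and Cdkn2c did.

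**Figure D2:**
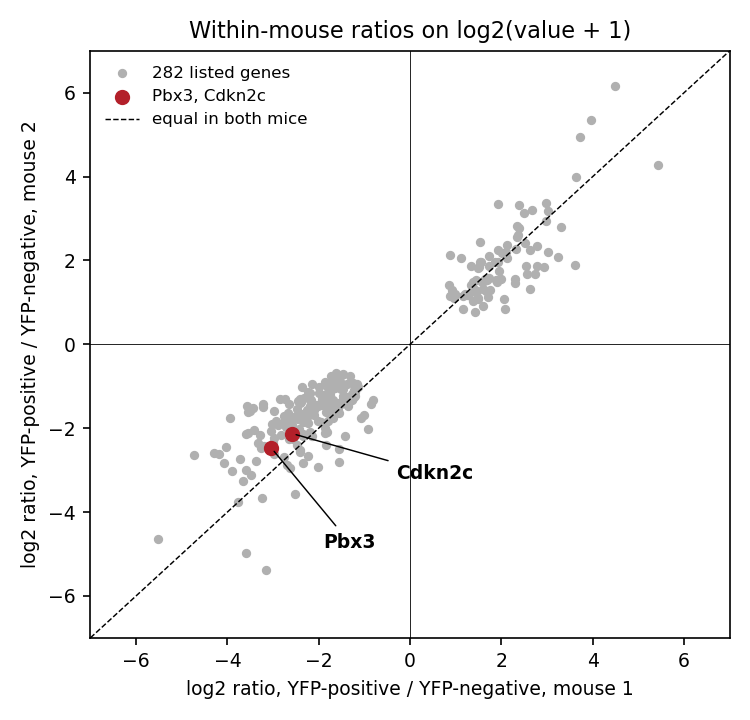
Log2 ratio of YFP-positive to YFP-negative Tregs in mouse 1 (horizontal) and mouse 2 (vertical), on log2(value + 1), for the 282 listed genes in grey and the 2 members in red. Pbx3 (-3.04 and -2.48) and Cdkn2c (-2.58 and -2.13) lie above the dashed line of equal ratios, with the larger fall in mouse 1.

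The members differed more in level than in fold. Per kilobase of exon, the YFP-negative level was 16.4 ± 0.23 normalized counts for Pbx3 and 153 ± 14.2 for Cdkn2c (SD, n = 2 each). In YFP-positive Tregs the levels per kilobase were 2.32 ± 0.64 and 30.4 ± 9.54. The ratio of Cdkn2c to Pbx3 per kilobase was 12.6 and 13.4 in the YFP-positive libraries of mice 1 and 2, and 8.68 and 10.1 in the YFP-negative libraries. On the log2(value + 1) scale, the change of Pbx3 minus that of Cdkn2c was -0.45 in mouse 1 and -0.35 in mouse 2. The difference between the members' falls was not tested, and the 95% intervals of their log2 fold changes overlap.

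Among the 196 lower genes the median log2 fold change by limma was -1.90, and the median gene kept 26.9% of its YFP-negative level. Ordered by limma's log2 fold change, Pbx3 was at place 27 and Cdkn2c at place 53 of the 196. Among the 179 with a mean of at least 50 inferred reads, they were at places 14 and 37. Pbx3 was one of the weakly counted genes, since 11.2% of the lower genes had a smaller YFP-negative mean, whereas 50.5% had a smaller one than Cdkn2c. In log2 units the SD of the YFP-positive libraries was 0.37 for Pbx3 and 0.46 for Cdkn2c, against a median of 0.35 over the lower genes. The SD of the YFP-negative libraries was 0.02 and 0.13, against a median of 0.24. The closest listed gene on chromosome 2 to Pbx3 was Angptl2, which encodes a secreted angiopoietin-like protein, 0.924 Mb away, and the closest on chromosome 4 to Cdkn2c was the gene model Gm12854, 6.40 Mb away.

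Of 24 genes listed for MLL1 or MLL fusion proteins in blood cells, the table held 5, including the 2 chosen members. The table held 1.98% of the 14239 genes implied by the authors' adjustment. The list was chosen with earlier results of these data known, so the 5 are not a test of it. By limma 4 of them fell and 1 rose, against 69.5% called lower over all 282, and their median log2 fold change was -1.29 against -1.51 over all 282. Beside Pbx3 and Cdkn2c, Runx2, a Runt-domain transcription factor gene, fell by 1.29 ± 0.38 (SE) on the log2 scale by limma (adjusted p = 0.00137). Its normalized counts were 139 and 172 in YFP-positive and 336 and 429 in YFP-negative mice 1 and 2. Gata3, which encodes a T helper transcription factor, fell by 1.09 ± 0.35 (limma adjusted p = 0.00306), from 3543 and 2823 in the YFP-negative to 1502 and 1465 in the YFP-positive libraries. Bcl2, the anti-apoptotic gene and a known target of MLL fusion proteins, moved the other way. It rose by 1.45 ± 0.38 (limma adjusted p = 0.000510), with 5805 and 5029 in the YFP-positive against 1379 and 2820 in the YFP-negative libraries. Unlike Pbx3 and Cdkn2c, each of these 3 lost its call in some fit. Adjusted over 14239 genes, limma gave adjusted p = 0.0692 for Runx2 and 0.154 for Gata3. Runx2 had limma adjusted p = 0.0619 without YFP-negative mouse 2, and Bcl2 had 0.0518 without YFP-positive mouse 1 and a log2 fold change of 0.94 without YFP-negative mouse 1. Over their 11 alternatives adjusted p ran from 0.000674 to 0.0692 for Runx2, from 0.00127 to 0.154 for Gata3 and from 0.000215 to 0.0518 for Bcl2. The 5 genes held both directions, and the study had selected all of them on these libraries.

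**Figure D3:**
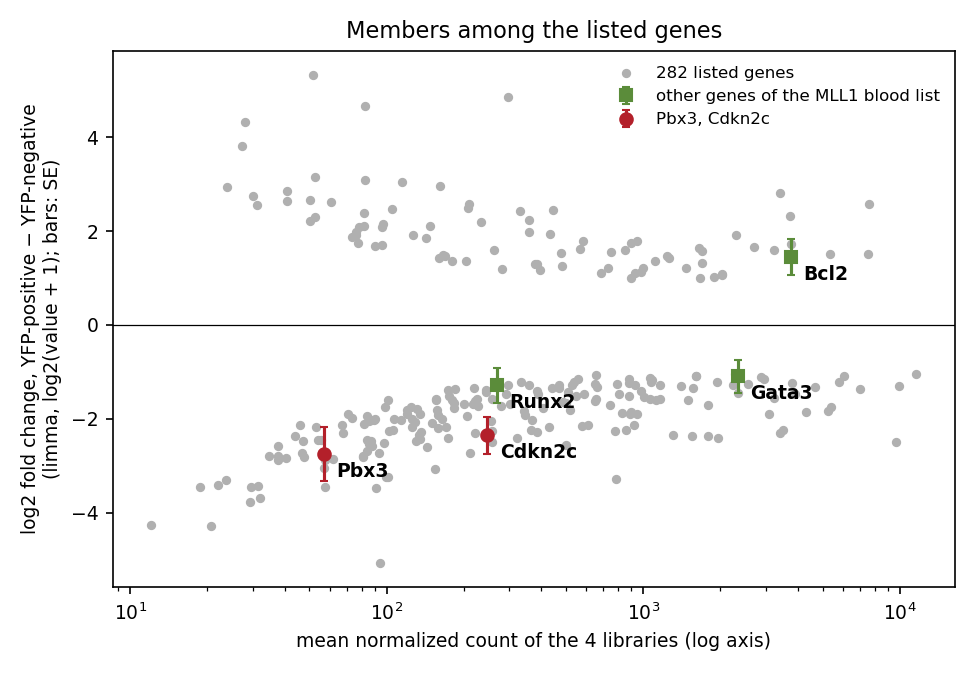
Limma log2 fold change (YFP-positive minus YFP-negative, on log2(value + 1)) against the mean normalized count of the 4 libraries on a log axis for the 282 listed genes, with SE bars on the 5 genes of the MLL1 list. Pbx3 and Cdkn2c (red) lie at -2.76 and -2.36, below Runx2 and Gata3, and Bcl2 lies above 0.

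The rest of both genes' own pathways had no value in the table. Of 16 genes for TALE homeodomain proteins and HOX partners, including the Pbx, Meis and Hoxa genes, Pbx3 was the 1 in the table. Of 23 genes of INK4 and CIP inhibitors, their kinases and cyclins, RB proteins and E2F factors, Cdkn2c was the 1 in the table. Of 18 genes of S phase and mitosis, such as Mki67 and Top2a, 0 were in the table. That list does not cover all genes of cell division, and Racgap1, a cytokinesis gene outside it, was in the table. Racgap1 was counted at 60.3 and 89.1 in YFP-positive against 412 and 322 in YFP-negative mice 1 and 2. Other cell division genes outside the list were not sought. Of 9 genes for MLL1 and its complex partners, 0 were in the table. The counts of these lists do not show that the other genes were alike in both populations. They are to be read against the 1.98% of the 14239 implied genes that the table held. Pbx3 and Cdkn2c were themselves the chosen genes. The table's transcription factor column marked 18 genes, of which 14 were lower, against 69.5% lower over all 282, and it gave the Homeobox family to Pbx3 and to Cers6. Cers6 is a ceramide synthase gene whose protein contains a homeobox-like domain, and it was counted at 124 and 116 in YFP-positive against 24.5 and 38.7 in YFP-negative mice 1 and 2.

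The listed genes whose 4 values were most like those of each member were found by the distance between log2(value + 1) values centred over the 4 libraries. For Pbx3 they were Tmem51 (distance 0.17), which encodes a transmembrane protein, Selenom (0.19), a selenoprotein gene, and Rab26 (0.23), a small GTPase gene, against a median distance of 1.44. For Cdkn2c they were Gpm6b (0.09), a membrane glycoprotein gene, Ifng (0.10), the interferon-gamma gene, and Penk (0.19), the proenkephalin gene, against a median of 1.15. Cdkn2c was place 10 in likeness to Pbx3, and Pbx3 was place 21 in likeness to Cdkn2c, at a distance of 0.44. By this measure genes with a fall of similar size lie close together, and it says nothing of shared function.

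Some markers of other cell types moved in the same libraries. A purity above 95% was given for both populations. The marker counts are to be read against the 1.98% of the 14239 implied genes that the table held. Of 10 B cell markers, 1 was in the table, the immunoglobulin gene Igkc, at 249 and 280 normalized counts in YFP-positive and 1503 and 1072 in YFP-negative mice 1 and 2. Of 10 CD8 T and NK cell markers, 1 was in the table, the granzyme gene Gzma, at 7.28 and 37.1 against 109 and 253. Among markers of conventional CD4 T cells, Igfbp4 rose, with 5011 and 3165 in YFP-positive against 1776 and 893 in YFP-negative mice 1 and 2, although it had limma adjusted p = 0.0533 without YFP-positive mouse 1. Cd40lg, the CD40 ligand gene, fell, with 309 and 447 against 823 and 1067. Of 12 erythroid and platelet markers, 2 were in the table, of which Gata1 rose, with 679 and 833 in YFP-positive against 132 and 141 in YFP-negative mice 1 and 2, and Car2 fell, with 56.2 and 82.7 against 197 and 294. Their summed level, 735 and 916 against 329 and 436, thus mixes both directions, and Car2 had limma adjusted p = 0.0664 without YFP-negative mouse 2. Of 10 myeloid markers 0 were in the table, and of 12 Treg identity genes the 1 in the table, Gpr83, rose from 1752 and 1442 to 5443 and 4259. The part of these markers in the falls of Pbx3 and Cdkn2c was not tested.

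**Figure D4:**
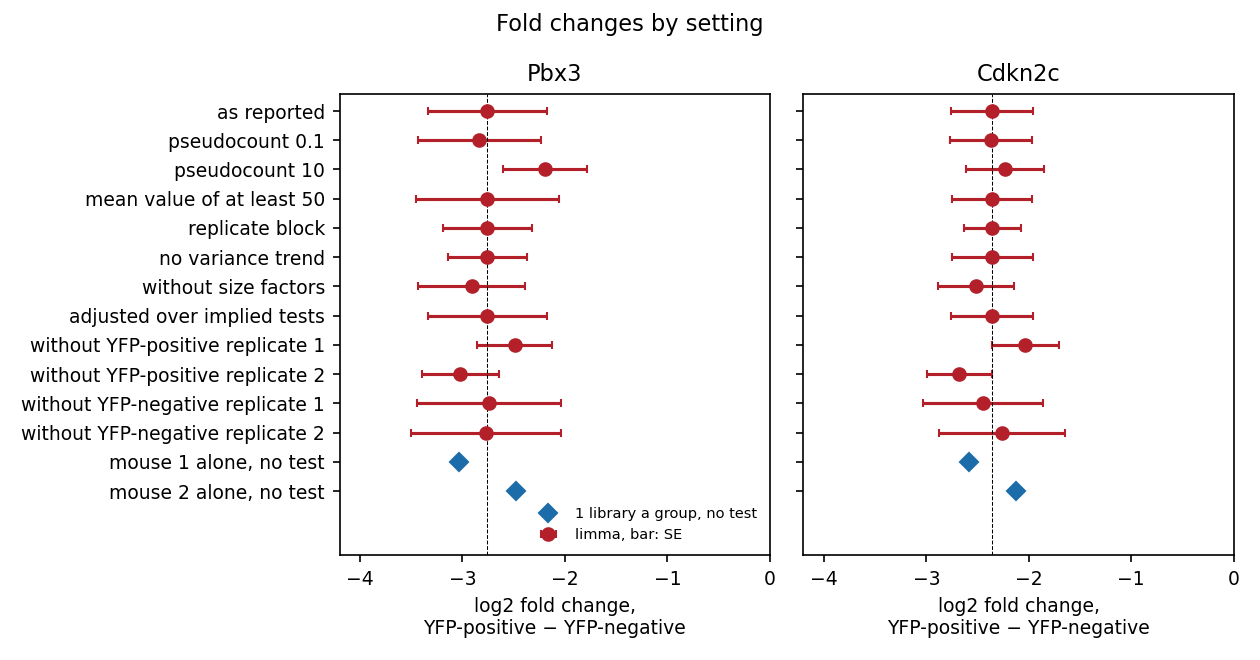
Log2 fold change of Pbx3 (left) and Cdkn2c (right) under each processing setting, with SE bars for limma fits and diamonds for the values of 1 mouse alone, which have no test. The dashed line marks the value as reported, and over the tested alternatives Pbx3 lies between -3.02 and -2.19 and Cdkn2c between -2.68 and -2.03.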

How the data were processed

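RNA of 4 Treg libraries was measured. The submitters' processing notes name mm10 with DESeq2 1.16.1, featureCounts 1.5.0-p3, HISAT2 2.0.5 and StringTie 1.3.3b, and the design text names DEGSeq 1.16.1. Annotation release and strand setting are not given in the sources used here. Each deposited signal value is a gene's read count divided, by the authors, by a size factor of the library. The authors' log2 fold changes are YFP-positive over YFP-negative, and the p-values, raw and adjusted, are those of the authors' own test.

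The largest step dividing all values of a library gave whole reads, within 0.001 reads, in 282 of 282 values of each library, with size factors of 0.943 to 1.11. Few values were low (12 to 39 of up to 20 reads per library), and the planned count models of the fold changes were not fitted. Limma 3.58.1 (R 4.3.3) was run on log2(value + 1) with a variance trend, no mouse block and Benjamini-Hochberg adjustment over the 282 genes, and was tested on simulated data. Both populations share mouse numbers. Across genes, which are not independent replicates, the 2 mouse 1 libraries deviated together from their group means (Pearson's r = 0.395). Transcripts were compared with blastn 2.17.0, and intervals came from scipy 1.17.1. The members and gene lists were chosen with earlier results of these data known. Named genes were the members, pathway list members in the table and the 3 genes most like each member. Cers6, Prox1, Racgap1, Angptl2 and Gm12854 were chosen after their values were seen, and the cell type markers come from their own lists. Some listed items are not reported here.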

Additional observations from a re-analysis of the deposited data

How the results depend on the processing

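Pbx3 and Cdkn2c kept their direction and an adjusted p under 0.05 by limma in all 11 tested alternatives, with adjusted p of 3.80e-06 to 0.0211 and 2.31e-08 to 0.0192. The alternatives were pseudocounts of 0.1 and 10, a mean value of at least 50, a replicate block, no variance trend, no size factors, adjustment over 14239 tests and each library left out. With the mouse as a replicate block, limma gave adjusted p = 0.00243 for Pbx3 (log2 fold change -2.76) and 0.00197 for Cdkn2c (-2.36), and 193 genes were called lower and 86 higher against 196 and 86. Leaving out 1 library, which assumes that the single library left in a group varies as the other group does, gave -3.02 to -2.49 for Pbx3, -2.68 to -2.03 for Cdkn2c, 176 to 187 lower and 76 to 83 higher genes. The values of each mouse alone, chosen after the data were seen, were within 1 SE of the value as reported, which is their mean. Selection of the listed genes fixed the directions in advance. Without size factors all genes shifted by a median of -0.16 on the log2 scale, Pbx3 was at -2.91 and Cdkn2c at -2.52. Cers6 had limma adjusted p = 0.0539 without YFP-negative mouse 1 (0.000209 to 0.0539 over its alternatives). The planned count models on inferred reads, edgeR and DESeq2, were not run, so the limma fold changes were not set against them. The Poisson and within-mouse intervals rest on the same inferred reads. Depth limits Pbx3, with 11 and 16 inferred reads in the YFP-positive libraries.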
